A study of Mus musculus with 12 samples.

Results

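Epithelial-mesenchymal transition (EMT) genes were read from bulk RNA-seq of mouse lung. The genes are the transcription factors Snai1, Snai2, Twist1, Zeb1 and Zeb2, the epithelial genes Cdh1, Epcam and Krt18, and the mesenchymal genes Cdh2 and Vim. They were chosen by name, as the rows of the count table that map to these symbols, and make up 10 of its 78298 genes. All 10 passed the filter on low counts, which left 22190 genes for testing. The 12 libraries came from LLC tumours and normal adjacent lung, dissected by hand under a microscope and frozen, from mice labelled as treated with HDM (house dust mite, given chronically per the series text) or VEH. Each of the 4 groups (normal VEH, normal HDM, tumour VEH, tumour HDM) has 3 libraries, and VEH and LLC are used as the labels give them. Strain, age, dose and the number of animals behind each library are not given in the sources used here, so p-values measure the spread between libraries.

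In EMT, epithelial cells loosen their junctions and take on a motile, mesenchymal state. The Snail (Snai1, Snai2), Twist and Zeb families are DNA-binding repressors or activators that bind E-box motifs, and Snail and Zeb proteins are known to repress Cdh1, the gene of E-cadherin. E-cadherin and Epcam hold epithelial cells together, keratin 18 is an intermediate filament of simple epithelium, and N-cadherin (Cdh2) and vimentin (Vim) are the usual mesenchymal counterparts. In lung, fibroblasts, endothelium and macrophages express vimentin and Zeb2 without any transition, and bulk RNA cannot tell fewer cells of a type from less RNA per cell.

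Library totals ran from 20608682 to 32765364 counts. In 3 libraries the levels of these genes or of lung epithelial markers stand apart from those of their group. Normal VEH replicate 2 had the most Twist1, Cdh2, Vim and Krt18 of the normal libraries and the least Cdh1. Tumour VEH replicate 2 had the most Cdh1 and Epcam of the tumour libraries, and the highest summed level of 10 alveolar epithelial markers among them (9014 CPM, the count scaled to library size, against 112 to 2655 in the other 5 tumours and 18030 to 44692 in normal lung). Tumour HDM replicate 3 had 0 counts of both Cdh1 and Epcam, and that alveolar sum was lowest there (112 CPM). It also had 25 genes at 0 that reached at least 100 counts in each of the 11 other libraries, and no other library had such a gene. Library names carry prefixes that each join 1 normal and 1 tumour library, and for 2 of the 6 prefixes the treatment labels of both libraries differ. One such prefix is on normal VEH replicate 2 and tumour HDM replicate 2, the other on tumour VEH replicate 3 and normal HDM replicate 3. Groups follow the treatment labels throughout.

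The promoters of Epcam, Krt18 and Snai1 are shown because they hold the E-box CAGGTG or its complement CACCTG, the sequence that Snail and Zeb factors are known to bind, while Epcam fell under HDM, Krt18 rose under VEH and Snai1 rose under both treatments in tumours. Promoters come from RefSeq (build GRCm38.p6, 250 bases before to 50 bases after a start) and held 6 of the 10 genes: Snai1, Twist1, Zeb2, Vim, Epcam and Krt18. Each was placed on GRCm39 by its single exact match on the chromosome. The 250 bases before the start follow, all on the plus strand and 5′ to 3′, with the motif in capitals.
Epcam (chr17:87943157-87943406): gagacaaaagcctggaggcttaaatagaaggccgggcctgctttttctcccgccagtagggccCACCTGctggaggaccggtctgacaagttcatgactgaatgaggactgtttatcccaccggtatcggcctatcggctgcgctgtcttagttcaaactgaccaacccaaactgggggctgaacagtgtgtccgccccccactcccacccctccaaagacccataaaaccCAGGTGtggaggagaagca
Krt18 (chr15:101936401-101936650): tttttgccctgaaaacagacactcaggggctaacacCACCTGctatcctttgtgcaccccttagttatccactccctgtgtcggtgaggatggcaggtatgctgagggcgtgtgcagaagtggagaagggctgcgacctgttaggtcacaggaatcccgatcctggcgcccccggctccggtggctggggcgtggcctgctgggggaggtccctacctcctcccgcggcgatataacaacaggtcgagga
Snai1 (chr2:167379865-167380114): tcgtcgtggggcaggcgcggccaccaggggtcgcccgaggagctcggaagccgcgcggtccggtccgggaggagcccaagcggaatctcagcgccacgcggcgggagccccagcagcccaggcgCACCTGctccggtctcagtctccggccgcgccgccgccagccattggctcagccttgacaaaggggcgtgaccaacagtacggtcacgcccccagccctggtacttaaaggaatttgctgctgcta
Epcam held the motif at 2 places, beginning 187 and 19 bases before the start. Krt18 held it once, 214 bases before the start, and Snai1 once, 126 bases before it. The windows of Vim, Twist1 and Zeb2 held neither CAGGTG nor CACCTG. Over all 32851 promoters of 300 bases in the table, 20.2% held the motif on either strand, 2.88% held it at 2 or more places, and 72.3% held the looser form CANNTG. A match describes the letters only.

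Snai1 and Twist1 were higher in tumours than in normal lung under both treatments, Snai2 was higher under HDM by the test, and the Zeb1 levels of all groups overlapped. Levels below are CPM after TMM scaling of the library sizes, in the order of replicates 1, 2 and 3. Fold changes are log2 ± SE from edgeR's quasi-likelihood test, with p adjusted by Benjamini-Hochberg over all 22190 genes, and a gene is called at an adjusted p under 0.05.

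Snai1 (ENSMUSG00000042821, chr2:167380113-167384734), the founding Snail repressor, was at 18.0, 11.6 and 11.6 CPM in normal VEH libraries and 14.6, 9.89 and 24.2 in normal HDM libraries. In tumours it was at 44.1, 45.4 and 49.7 CPM under VEH and 59.2, 43.5 and 39.1 under HDM. Every tumour library lay above every normal one. Snai1 rose by 1.75 ± 0.31 under VEH (edgeR adjusted p = 0.00216) and by 1.54 ± 0.31 under HDM (edgeR adjusted p = 0.00231). A predicted gene on the opposite strand, Gm75792, overlaps its exons and held 2346 counts against 9696 for Snai1; it also rose, by 2.18 and 1.62. Whether the counting used the strand is not given in the sources used here, so reads of both genes may be shared.

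Snai2 (ENSMUSG00000022676, chr16:14523425-14527252), the Slug repressor of neural crest and mesenchyme, was at 6.24, 3.78 and 5.14 CPM in normal VEH, 3.93, 2.15 and 7.99 in normal HDM, 7.94, 8.59 and 9.97 in tumour VEH, and 9.28, 13.7 and 11.9 in tumour HDM. Within each treatment the tumours lay above normal lung, but normal HDM replicate 3 slightly exceeded the lowest VEH tumour. Snai2 rose by 1.31 ± 0.42 under HDM (edgeR adjusted p = 0.0227) and was not called under VEH (0.81 ± 0.42, edgeR adjusted p = 0.14). The HDM call was lost without normal HDM replicate 1 (adjusted p = 0.0735) or replicate 2 (adjusted p = 0.0586), and the value was 2.03 without replicate 3. Leaving out the 3 libraries that stand apart gave 1.29 with an adjusted p of 0.0541.

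Twist1 (ENSMUSG00000035799, chr12:34007645-34009828), a helix-loop-helix factor of mesoderm and cranial mesenchyme, differed most among the 10 genes. It was at 0.493, 8.94 and 0.253 CPM in normal VEH libraries and at 0.819, 0.529 and 0.884 in normal HDM libraries. The tumours held 51.5, 110 and 47.8 CPM under VEH and 55.0, 52.3 and 53.2 under HDM. Normal VEH replicate 2 was the only normal library above 1 CPM, and it still lay below every tumour. Twist1 rose by 4.41 ± 1.04 under VEH (edgeR adjusted p = 0.00866) and by 6.16 ± 1.16 under HDM (edgeR adjusted p = 0.00178). Without normal VEH replicate 2 the VEH value was 7.53, with an adjusted p of 5.16e-05. That library was also the highest normal library for 1763 of the 3637 genes that were higher in every tumour (48.5%), where each other normal library was highest for 7.34% to 12.0%. Among 18 such genes of the related and marker lists it was highest for 16. The Twist1 paralog Twist2 was at 21.9 CPM there against 0.758 to 3.29 in the other normal libraries, and the matrix proteoglycan Lum at 110 CPM against 4.30 to 23.5. Summed mesothelial markers were highest there too, at 1799 CPM against 338 to 1045. The part of any of these in the Twist1 level was not tested.

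Zeb1 (ENSMUSG00000024238, chr18:5591851-5775467) and Zeb2 (ENSMUSG00000026872, chr2:45007464 to 44873644 on the minus strand) are zinc-finger repressors, and Zeb2 is also abundant in macrophages. Zeb1 was at 65.4, 49.9 and 95.4 CPM in normal VEH, 66.4, 62.2 and 68.6 in normal HDM, 69.5, 63.7 and 59.0 in tumour VEH, and 73.9, 75.9 and 61.3 in tumour HDM. All 4 groups overlapped, and neither tissue comparison was called (VEH -0.13 ± 0.20, edgeR adjusted p = 0.619; HDM 0.10 ± 0.20, edgeR adjusted p = 0.706). Scaling by library size alone turned the VEH value to 0.01. Zeb2 was at 84.9, 69.0 and 87.4 CPM in normal VEH, 98.1, 67.3 and 80.2 in normal HDM, 83.2, 61.3 and 69.9 in tumour VEH, and 125, 143 and 88.9 in tumour HDM. The HDM tumours held the 2 highest Zeb2 levels, while the third lay below normal HDM replicate 1. Zeb2 rose by 0.54 ± 0.21 under HDM (edgeR adjusted p = 0.0465) and was not called under VEH (-0.17 ± 0.21, edgeR adjusted p = 0.522). The HDM call was lost without normal HDM replicate 2 (adjusted p = 0.157), normal HDM replicate 3 (0.0662), tumour HDM replicate 1 (0.0691) or tumour HDM replicate 2 (0.0998). Over all 16 alternative runs, the Zeb2 call under HDM was lost in 11. Of 10 macrophage and monocyte markers, 5 were called higher and 1 lower in HDM tumours (median 0.93), beside 23.0% and 28.9% of all genes. Fcgr1 rose by 2.53, Itgam by 2.34 and Ms4a7 by 2.31. None of the 10 markers was at 0. Their summed level was nevertheless lower, 2180 to 4175 CPM in HDM tumours and 4578 to 12782 in normal HDM lung. Most of it was Lyz2, the marker called lower under HDM (-2.04). Under VEH, where Zeb2 was not called, 5 of the 10 markers were also called higher and 1 lower (median 0.90). Of all genes, 18.2% were called higher and 20.6% lower there. For HDM against VEH in tumours 0 of the 10 were called (median 0.07), beside 0.0946% of all genes. Zeb2 differed by 0.74 in that comparison and was not called. The part of macrophages in the Zeb2 levels was not tested. Antisense genes overlap both: Zeb1os1 held 497 counts against 21246 for Zeb1, and Zeb2os 1542 against 27972 for Zeb2.

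**Figure D1:**
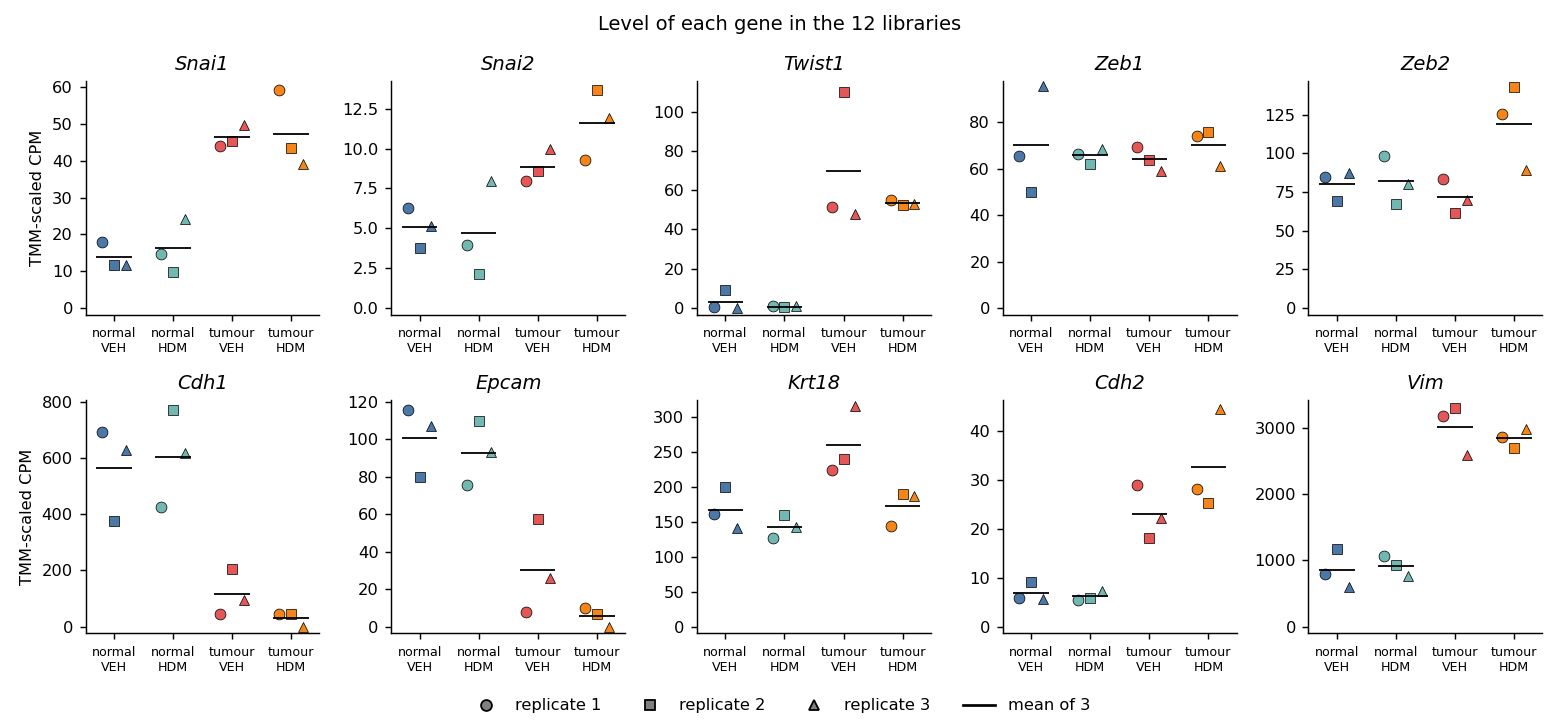
CPM of the 10 genes in each of the 12 libraries, on linear axes that start at 0, with a point per library and a line at the mean of each group of 3. Snai1, Twist1, Cdh2 and Vim are higher in all 6 tumours than in all 6 normal libraries, Cdh1 and Epcam are lower, and Zeb1 overlaps in every group.

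Among the epithelial genes, Cdh1 and Epcam were lower in every tumour than in any normal library, while Krt18 was not. Cdh1 (ENSMUSG00000000303, chr8:107329941-107396880) was at 691, 377 and 629 CPM in normal VEH and 425, 770 and 617 in normal HDM. In tumours it was at 43.3, 206 and 95.4 CPM under VEH and 44.6, 43.7 and 0 under HDM. No tumour reached the lowest normal library. Cdh1 fell under HDM (-4.36 ± 1.40, edgeR adjusted p = 0.0242) and was not called under VEH (-2.30 ± 1.28, edgeR adjusted p = 0.171), although the groups did not overlap. For tumour HDM replicate 3 a count of 0 allows up to 3 counts, or 0.0910 CPM, and this limit covers counting error only. Without that library the HDM value was -3.62 (adjusted p = 0.00182). The HDM call was lost without normal HDM replicate 2 (adjusted p = 0.0509), tumour HDM replicate 1 (0.0582) or tumour HDM replicate 2 (0.0609). Over all 15 alternative runs that tested Cdh1, its HDM call was lost in 7. Without the 3 libraries that stand apart the values were -3.25 under VEH and -3.77 under HDM. These libraries were picked partly by their Cdh1 levels, so that fit cannot test the fall under either treatment.

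Epcam (ENSMUSG00000045394, chr17:87943407-87958557), an epithelial adhesion molecule, was likewise highest among tumours in VEH replicate 2 and lowest in HDM replicate 3. It was at 115, 80.1 and 107 CPM in normal VEH, 75.4, 110 and 93.2 in normal HDM, 7.90, 57.3 and 25.9 in tumour VEH, and 9.94, 6.90 and 0 in tumour HDM. The highest tumour (VEH replicate 2) stayed below the lowest normal library. Epcam fell under HDM (-4.06 ± 1.17, edgeR adjusted p = 0.015) and was not called under VEH (-1.73 ± 1.06, edgeR adjusted p = 0.208). Its HDM value was -3.32 (adjusted p = 0.00437) without tumour HDM replicate 3. Without the 3 libraries that stand apart the values were -2.72 under VEH and -3.46 under HDM. Epcam levels helped to pick these libraries too, so that fit is no test of the fall.

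Lung epithelial markers moved with both genes. Summed over 10 alveolar markers, tumours held 2458, 9014 and 2563 CPM under VEH and 2572, 2655 and 112 under HDM, so the tumour with the most Cdh1 and Epcam was highest and the tumour with 0 counts of both was lowest. Summed over 9 airway markers, tumours held 554, 19797 and 6269 CPM under VEH and 738, 1182 and 19.5 under HDM, against 24962 to 113861 in normal lung. In tumour HDM replicate 3 the surfactant gene Sftpb was at 0.637 CPM and the club cell gene Scgb1a1 at 2.27 CPM, and 3 airway markers were at 0. The part of normal epithelium in the tumour levels of Cdh1 and Epcam was not tested.

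Krt18 (ENSMUSG00000023043, chr15:101936615-101940462) was at 161, 200 and 141 CPM in normal VEH, 126, 160 and 142 in normal HDM, 224, 240 and 316 in tumour VEH, and 144, 190 and 187 in tumour HDM. All VEH tumours lay above all normal libraries, and the HDM tumours overlapped normal HDM lung. Krt18 rose under VEH by 0.64 ± 0.19 (edgeR adjusted p = 0.0217) and was not called under HDM (0.28 ± 0.19, edgeR adjusted p = 0.233). The VEH call was lost without normal VEH replicate 1 (adjusted p = 0.0672), normal VEH replicate 3 (0.0823) or tumour VEH replicate 3 (0.0541), with the prefix as a block (0.0549) and with only the groups compared in the fit (0.051). Tumour HDM replicate 3, with no count of Cdh1 or Epcam, held 187 CPM of Krt18. Krt8, the usual partner of keratin 18 and picked here after its values were seen, was at 335 CPM there. Other keratins were not kept: Krt7 was at 0.546 CPM and Krt19 at 1.88 CPM in that library. Normal lung held 253 to 492 CPM of Krt7 and 200 to 377 CPM of Krt19. Krt8 ranged from 237 to 434 CPM in normal lung and from 218 to 507 CPM in tumours, and was not called under VEH (0.18 ± 0.26, edgeR adjusted p = 0.596) or HDM (-0.17 ± 0.26, edgeR adjusted p = 0.598).

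**Figure D2:**
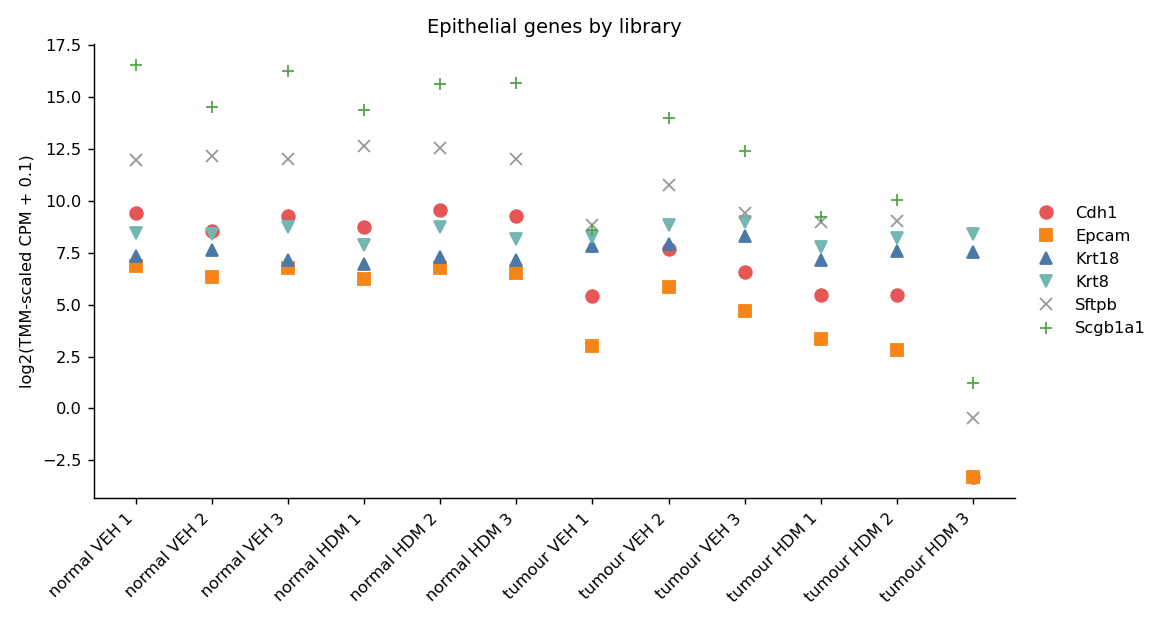
Log2(CPM + 0.1) of Cdh1, Epcam, Krt18, Krt8, the surfactant gene Sftpb and the club cell gene Scgb1a1, with a point per library. Cdh1, Epcam, Sftpb and Scgb1a1 drop together in tumours and are lowest in tumour HDM replicate 3, where Krt18 is at 187 CPM and Krt8 at 335 CPM.

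Both mesenchymal genes were higher in every tumour. Cdh2 (ENSMUSG00000024304, chr18:16942381 to 16700793 on the minus strand), N-cadherin, was at 5.91, 9.06 and 5.56 CPM in normal VEH, 5.32, 5.89 and 7.22 in normal HDM, 28.9, 18.1 and 22.1 in tumour VEH, and 28.2, 25.3 and 44.5 in tumour HDM. Its lowest tumour was VEH replicate 2, the tumour with the most Cdh1, and its highest was HDM replicate 3, the tumour with none detected. Cdh2 rose by 1.75 ± 0.29 under VEH (edgeR adjusted p = 0.00166) and by 2.41 ± 0.30 under HDM (edgeR adjusted p = 0.000213).

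Vim (ENSMUSG00000026728, chr2:13578738-13587639) was at 3187, 3298 and 2588 CPM in tumours under VEH and at 2866, 2694 and 2980 under HDM. Normal lung held 800, 1179 and 602 CPM under VEH and 1060, 929 and 765 under HDM. The tumours lay within a narrow range, far above the highest normal library. Vim rose by 1.81 ± 0.24 under VEH (edgeR adjusted p = 0.000582) and by 1.63 ± 0.24 under HDM (edgeR adjusted p = 0.000416). The opposite-strand gene Gm54102 overlaps Vim exons with 224673 counts against 609274, and it rose by 2.05 and 1.79, so part of either count may belong to the other. The summed level of 10 fibroblast markers was 8432 to 25441 CPM in tumours and 1019 to 3997 in normal lung. Most of the tumour sum was Fn1 (2982 to 12103 CPM) and Col3a1 (2860 to 10276 CPM). However, 4 of the 10 markers rose and 4 fell in each treatment. Of all genes, 18.2% rose and 20.6% fell under VEH, and 23.0% rose and 28.9% fell under HDM. Lum and Fn1 rose and the resident fibroblast factor Tcf21 fell (-4.01 under VEH and -6.92 under HDM). The part of fibroblasts in Vim and Cdh2 was not tested.

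Levels of different genes can be compared per length, as TPM, which scales counts by gene length and then to a fixed total. In normal lung Vim (387 ± 128 TPM, SD, n = 6), Cdh1 (254 ± 54.9), Krt18 (219 ± 50.5) and Epcam (88.0 ± 7.89) led; the first 3 overlapped and Epcam lay below them. No transcription factor exceeded a mean of 18.8 TPM. In tumours Vim stood at 1913 ± 203 TPM and Krt18 at 461 ± 108. Twist1 (114 ± 28.5) and Snai1 (90.1 ± 20.3) came next, below every Krt18 value, with ranges that overlapped each other. Cdh1 (44.7 ± 38.6), Epcam (22.9 ± 23.7), Zeb1 (20.4 ± 3.77), Snai2 (15.9 ± 4.58), Zeb2 (15.0 ± 6.25) and Cdh2 (10.97 ± 4.50) followed, and neighbours in that order did not differ beyond their spread. The order of the factors in normal lung was Snai1 (18.8 ± 7.71), Zeb1 (13.3 ± 2.44), Zeb2 (8.13 ± 1.56), Snai2 (4.87 ± 2.19) and Twist1 (2.70 ± 4.79), each overlapping the next, and Cdh2 was at 1.65 ± 0.52. TPM was used within tissues only, because 1 CPM of a gene of 1000 bases equalled 1.66 to 2.27 TPM in normal libraries and 2.48 to 3.51 TPM in tumours.

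The ratio of Cdh1 to Cdh2 TPM set both cadherins side by side in each library, whichever cells they came from. It was 206, 73.3 and 200 in normal VEH and 141, 231 and 151 in normal HDM. In tumours it was 2.64, 20.1 and 7.60 under VEH and 2.79, 3.04 and 0 under HDM, where 0 counts of Cdh1 allow a ratio of up to 0.0036. Even so, Cdh1 remained above Cdh2 per length in 5 of the 6 tumours; the exception was HDM replicate 3.

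Of the 10 genes, 5 were called under VEH, all of them higher (Snai1, Twist1, Cdh2, Vim and Krt18), where 38.9% of all tested genes were called 18.2% higher and 20.6% lower. Under HDM 8 were called, 6 higher and 2 lower, where 51.9% of all genes were called, 23.0% higher and 28.9% lower. Groups did not overlap for 8 genes under VEH (52.4% of all genes) and for 7 under HDM (63.1%). Over all 6 tumours against all 6 normal libraries, Snai1, Twist1, Cdh2 and Vim were higher and Cdh1 and Epcam lower without overlap, where 36.3% of all genes were separated, 16.4% higher and 19.9% lower. Without the 4 libraries of conflicting prefixes, 3 of the HDM calls were lost: Cdh1 (edgeR adjusted p = 0.151), Epcam (0.134) and Zeb2 (0.216). With the prefix as a block the same 3 were lost, at 0.0898, 0.0695 and 0.187, and so was the VEH call of Krt18. The median log2 fold change of the 10 genes was 0.72 under VEH and 0.92 under HDM, beside -0.11 and -0.08 for all tested genes. Scaling by library size alone moved those all-gene medians to 0.03 and 0.10. No called member changed direction under any alternative scaling.

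**Figure D3:**
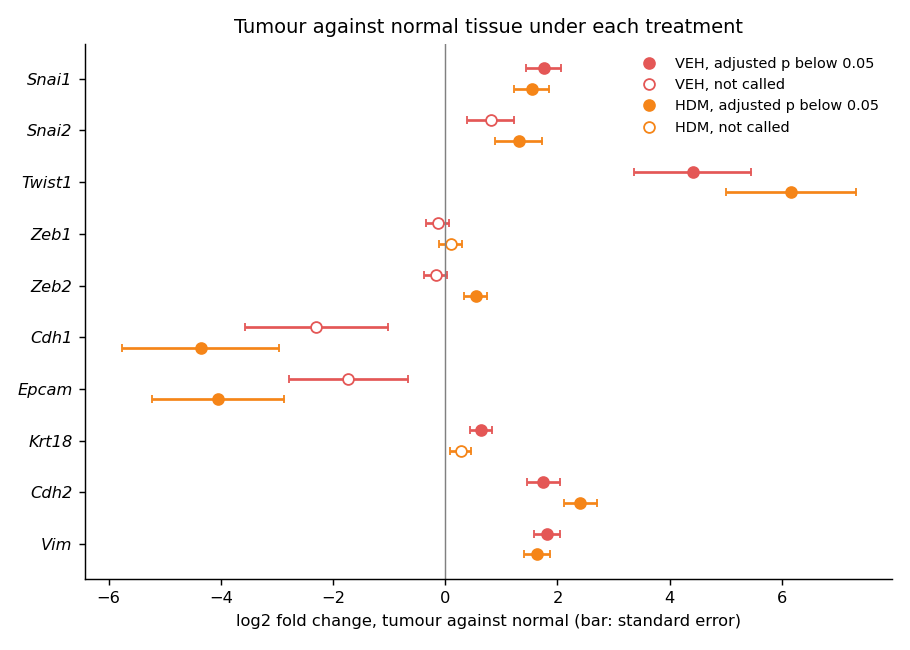
Log2 fold change of each of the 10 genes, tumour against normal lung, under VEH and under HDM, with error bars of 1 SE and filled points for an edgeR adjusted p under 0.05. Twist1 lies furthest to the right (4.41 and 6.16) and Cdh1 furthest to the left (-2.30 and -4.36).

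Pairing each tumour with the normal library of the same name prefix gave 6 differences per gene, which include the 2 pairs of conflicting treatment labels. The log2 CPM difference was positive in 6 of 6 pairs for Snai1 (1.04 to 2.57), Snai2 (0.32 to 2.07), Twist1 (2.54 to 8.39), Cdh2 (1.48 to 3.04) and Vim (1.19 to 2.45). It was negative in 6 of 6 pairs for Cdh1 (-12.45 to -1.61) and Epcam (-9.96 to -0.90), and their lower ends come from the pair with 0 counts. Krt18 was higher in 4 of 6 pairs, Zeb1 in 3 and Zeb2 in 2. The pairs with higher Zeb2 held tumour HDM replicates 1 (0.90) and 2 (1.05), and the pair of tumour HDM replicate 3 was lower (-0.14). All pairs of VEH tumours were lower in Zeb2 (-0.51 to -0.03).

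HDM against VEH called none of the 10 genes in either tissue. In tumours 0 were called by edgeR (0.0946% of all genes were called) and 0 by DESeq2, and 3 had an unadjusted p under 0.05, where 16.7% of all genes did. Zeb2 was higher in all HDM tumours than in all VEH tumours (0.74 ± 0.21, edgeR adjusted p = 0.174), and Krt18 was lower in all of them (-0.58 ± 0.19, edgeR adjusted p = 0.203). These 2 genes were the ones whose groups did not overlap, as for 22.0% of all genes. Epcam differed by -2.45 ± 1.10 (edgeR adjusted p = 0.298) and Cdh1 by -1.97 ± 1.27 (edgeR adjusted p = 0.456), with overlapping groups. Without the 3 libraries that stand apart these became -1.005 and -0.65. The other factors and mesenchymal genes had values from -0.38 (Twist1) to 0.50 (Cdh2), with SEs that leave room for changes in either direction.

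In normal lung 0 of the 10 genes were called by edgeR (0% of all genes were) or by DESeq2, and 0 had an unadjusted p under 0.05, where 5.54% of all genes did. The groups of all 10 overlapped, while those of 10.3% of all genes did not. The values ran from -2.13 (Twist1) to 0.24 (Snai1), and the Twist1 value rested on normal VEH replicate 2: it was 0.98 without the libraries that stand apart. The interaction, which asks whether the tumour difference itself depended on treatment, called 0 of the 10 genes (0% of all genes) with edgeR and with DESeq2. For Zeb2 it was 0.71 ± 0.29 (edgeR adjusted p = 0.512), the only one of the 10 with an unadjusted p under 0.05, as 9.39% of all genes had. The interactions of Cdh1 (-2.06 ± 1.75) and Epcam (-2.32 ± 1.49) were wide, so a call under HDM and none under VEH is not shown to be a difference between treatments. Each tissue comparison shares libraries with each treatment comparison, so they are not independent.

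Other genes of the EMT programme were taken by list, and the members named are those called with the largest changes among genes with an average log2 CPM of at least 3. Up to 3 were named per treatment, so a gene named under 1 treatment may have been called under both. Among 12 tested other EMT transcription factors, 4 rose and 3 fell under VEH (median 0.79), and 5 rose and 4 fell under HDM (median 0.85), where 18.2% of all genes rose and 20.6% fell under VEH and 23.0% rose and 28.9% fell under HDM. Sox9, a factor of cartilage and lung progenitors, rose by 4.26 ± 0.92 and 4.59 ± 0.94 (edgeR adjusted p = 0.0057 and 0.00272). The mesenchymal homeobox gene Prrx1 rose by 2.89 ± 0.67 and 4.09 ± 0.71. Twist2 rose by 4.81 ± 1.00 under HDM and was not called under VEH (2.23 ± 0.88, edgeR adjusted p = 0.0677). Id1, an inhibitor of helix-loop-helix factors, fell under VEH (-2.26) and HDM (-2.62).

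Of 14 factors that maintain epithelial identity and splicing, 0 rose and 9 fell under VEH (median -2.19), and 0 rose and 14 fell under HDM (median -4.40, or -4.34 with a gene at the counting floor set to its bound), beside 20.6% and 28.9% of all genes called lower. Elf5, an Ets factor, fell under VEH (-3.03) and HDM (-4.85). Klf4 (-2.20 and -2.19) and the forkhead factor Foxa2 (-2.18 and -4.31) also fell under VEH and HDM. Foxa1 (-4.83) and the epithelial splicing regulator Esrp1 (-4.56) fell under HDM and were not called under VEH (-2.13 and -1.93). The less abundant Grhl3, named after its values were seen, fell under VEH (-3.55) and HDM (-5.77). It was at the counting floor in HDM tumours (0.0821, 0 and 0 CPM), so the size of its HDM fall is uncertain. The number called lower changed with the libraries and the filter. Under VEH it was 1 without the 4 libraries of conflicting prefixes and 14 without the 3 libraries that stand apart. Under HDM it was 5 with at least 10 counts in every library. That filter left genes untested, such as Elf5, Ehf and Esrp1 at 0 CPM in tumour HDM replicate 3, so they could not be called.

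Of 16 tight junction and desmosome genes, 0 rose and 10 fell under VEH (median -1.99), and 0 rose and 15 fell under HDM (median -3.57), again beside 20.6% and 28.9% of all genes. Over the alternatives the count ran from 2 to 15 under VEH and from 8 to 16 under HDM. The desmosomal plaque gene Dsp fell under both treatments (-2.57 and -4.61). Cingulin (Cgn) fell under VEH (-2.76) and HDM (-4.51), and periplakin (Ppl) fell under VEH (-2.59). Desmoglein 2 (Dsg2, -5.29) and claudin 3 (Cldn3, -4.62) fell under HDM and were not called under VEH (-2.12 and -2.29). Of 13 adherens junction genes and other cadherins, 1 rose and 11 fell under VEH (median -1.51), and 0 rose and 11 fell under HDM (median -2.08), beside 18.2% of all genes higher and 20.6% lower under VEH, and 23.0% and 28.9% under HDM. The named genes are not only epithelial: Cdh11, a cadherin of fibroblasts, fell under VEH (-3.36) and HDM (-3.77), and so did Cdh5, the cadherin of endothelium (-2.23 and -3.39), and the plaque gene Jup (-2.50 and -4.24). The less abundant Cdh16, named after its values were seen, fell under VEH (-2.98) and HDM (-4.75). Summed over 10 endothelial markers, tumours held 117 to 662 CPM and normal lung 1881 to 3963.

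Of 13 other keratins and epithelial surface genes, 0 rose and 2 fell under VEH (median -1.73), and 0 rose and 9 fell under HDM (median -3.45). The VEH count is a smaller share than the 20.6% of all genes called lower, and under HDM, where 28.9% of all genes were called lower, the count was 1 without the 4 libraries of conflicting prefixes. The membrane protease Prss8 fell under both treatments (-2.94 and -4.90). The protease inhibitor Spint2 (-4.37) and Cd24a (-4.27) fell under HDM and were not called under VEH (-2.09 and -1.89). Of 24 other mesenchymal markers, 11 rose and 7 fell under VEH (median 0.14), and 10 rose and 8 fell under HDM (median 0.33), beside 18.2% of all genes higher and 20.6% lower under VEH, and 23.0% and 28.9% under HDM. Lum rose by 4.76 ± 0.95 and 5.72 ± 0.99, and fibronectin (Fn1) by 4.37 ± 0.83 and 4.69 ± 0.84. The contractile genes Tagln (-3.81 under VEH) and Des (-3.59 under VEH and -4.84 under HDM) fell. Summed over 10 smooth muscle and pericyte markers, tumours held 27.0 to 129 CPM and normal lung 136 to 1741.

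Of 23 ligands, receptors and mediators that feed the EMT programme, 5 rose and 5 fell under VEH (median 0.09), and 5 rose and 7 fell under HDM (median 0.15). These shares are close to the 38.9% and 51.9% of all genes called, so the counts show nothing particular to the list. The named members, picked by size of change, were lower in tumours. Tgfb2 (-2.36 and -1.75), the Notch ligand Jag1 (-2.35 and -3.25) and Notch1 (-1.74 and -2.89) fell under VEH and HDM. The collagen crosslinking enzyme Lox fell under VEH (-1.92) and Wnt5a under HDM (-2.81). Wnt5a was not called under VEH (-1.71). Of the 5 that rose in each treatment, Hgf, named after its values were seen, rose in both (1.53 and 1.90). The less abundant Tnf, named after its values were seen, rose under VEH (2.31, edgeR adjusted p = 0.0318). No gene of these 7 lists was called for HDM against VEH in tumours or in normal lung.

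**Figure D4:**
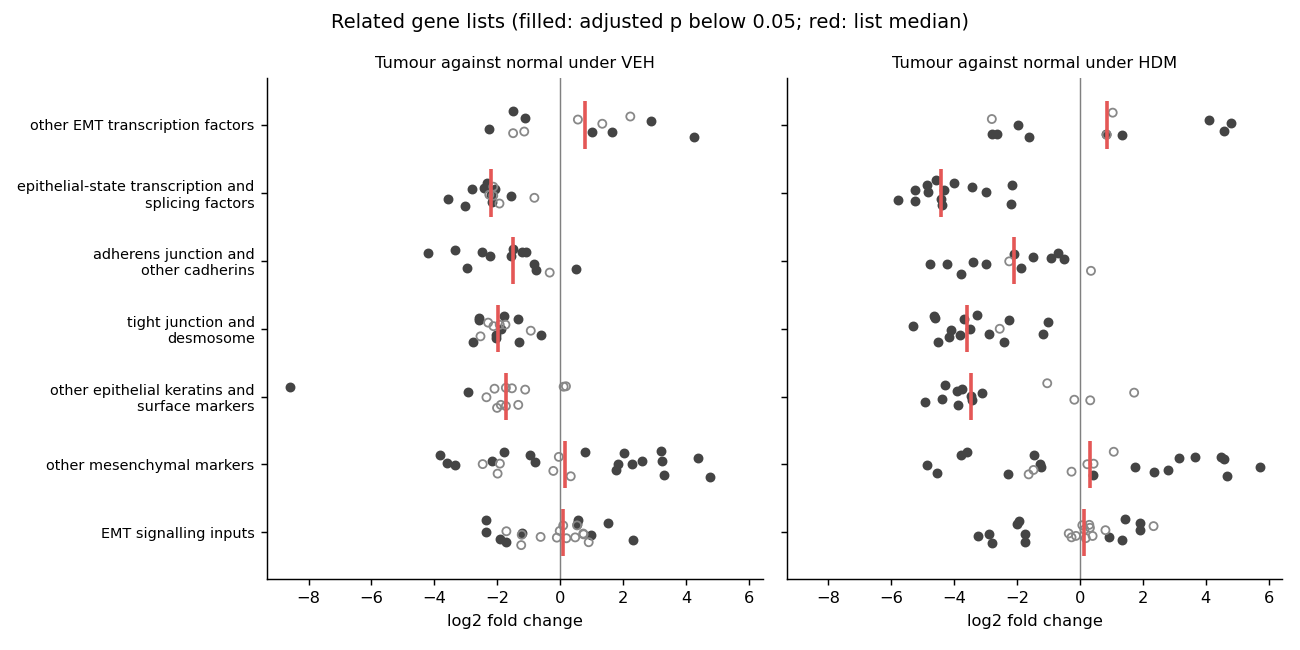
Log2 fold change, tumour against normal lung, of each tested gene in the 7 lists, under VEH and HDM, with filled points for an edgeR adjusted p under 0.05 and a bar at the list median. Junction genes and epithelial-state factors lie mostly below 0, and other mesenchymal markers and signalling inputs lie on both sides.

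The genes whose log2 CPM profile over the 12 libraries was closest to each of the 10 were found among 11010 protein-coding genes, by the root mean square difference after centring; this is a description with no test. Cdh1 was closest to Sftpb (0.41) and Wfdc2 (0.45), a secreted epithelial protein, where its own root mean square about its mean was 3.55. Epcam was closest to Ppp1r14c (0.38) and Esrp1 (0.41), beside its own 2.92. Twist1 was closest to the homeobox gene Rhox5 (0.53) and the growth factor Ptn (0.65), beside its own 3.16.

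Vim was closest to the replication factor subunit Rfc4 (0.13) and the tubulin Tubb5 (0.17), beside its own 0.91. Cdh2 was closest to the centrosomal genes Cep192 (0.19) and Cep170 (0.19), and Snai1 to Arhgap42 (0.20) and Eeig2 (0.22). Snai2 was closest to Tada2a (0.25) and Zfp9 (0.26), and Krt18 to Rrp7a (0.17) and Phf5a (0.19). Zeb1 (Bicd2 0.14, Pus10 0.15) and Zeb2 (Atxn3 0.17, Rnf111 0.17) varied little themselves, by 0.22 and 0.35. Among the 10 genes the closest pairs were Zeb1 with Zeb2 (0.30), Cdh2 with Vim (0.40) and Snai1 with Snai2 (0.44), and Cdh1 with Epcam differed by 0.73.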

How the data were processed

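RNA was sequenced from both ends in stranded libraries, per the labels' protocols. The authors deposited raw counts per gene with gene lengths, per the file headers; the submitters' processing notes name Trim Galore, STAR, featureCounts (Subread) and mm39, without versions. The annotation release and strand setting are not given in the sources used here. Identifiers were matched to GENCODE M39 on GRCm39 (78168 of 78298), and unmatched ones held 0.143% of counts. The deposited lengths, another column of the authors' table, served for TPM.

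Counts were filtered with filterByExpr (minimum count 10), scaled by TMM and fitted in R 4.3.3 with edgeR 4.0.16 over all 12 libraries, with 1 coefficient per group and robust quasi-likelihood dispersion. The 5 comparisons were tumour against normal under VEH and under HDM, HDM against VEH in each tissue, and the interaction. P-values are two-sided. SEs of log2 fold changes were derived from the F statistic. DESeq2 1.42.0, other scalings, filters, blocks and left-out libraries were alternatives. Leaving out the 3 libraries that stand apart was added after seeing the data. The script was tested on simulated data.

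The 10 genes and the related lists were chosen with earlier results of these data known. All 10 are named. From each list up to 3 called genes per comparison with the largest change and an average log2 CPM of at least 3 are named, and for each of the 10 the 2 genes with the closest profile, computed on log2 CPM with a prior count of 2.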

Additional observations from a re-analysis of the deposited data

How the results depend on the processing

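Of 50 fold changes (10 genes in 5 comparisons), 13 were called, and none of these changed direction in any alternative run. Of 830 alternative values, 749 kept their direction and their side of the threshold, 30 lost the call, 3 gained it and 48 changed sign, none of the last with an adjusted p under 0.368. The calls of Snai1, Twist1, Cdh2 and Vim held wherever they could be tested. The count of genes changed under HDM, 8, was 5 without a filter, 4 with at least 10 counts in every library (where 3 of the genes were not tested), 5 with only the groups compared in the fit, 5 with the prefix as a block and 5 without the 4 libraries of conflicting prefixes; DESeq2 called 6. Leaving out a library gave 5 (without normal HDM replicate 2) to 8 under HDM and 4 to 5 under VEH. The count under VEH was 4 to 5 in the other alternatives and 7 without the 3 libraries that stand apart, where Cdh1 and Epcam were added. That fit gave 7 under HDM. Its left-out libraries were picked partly by the levels of Cdh1 and Epcam, so the added calls are no support for a change under VEH. Cdh1 under VEH also passed the threshold with only the groups compared in the fit (-2.26, adjusted p = 0.03). All counts for HDM against VEH and for the interaction were 0 in every alternative.

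For the related lists, the number called lower under VEH ran over the alternatives from 1 to 14 for epithelial-state factors, 2 to 15 for tight junctions and desmosomes, 5 to 11 for adherens junctions and cadherins, 0 to 9 for keratins and surface genes, and 2 to 10 for other mesenchymal markers. Under HDM it ran from 5 to 14, 8 to 16, 10 to 12, 1 to 9 and 4 to 8 for the same lists. The 5 for epithelial-state factors under HDM came with at least 10 counts in every library. So did the 0 for keratins and surface genes under VEH. That filter leaves genes with few counts in any library untested, so these lowest counts are not only lost calls.

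The correlations below were not set against those of unmatched libraries, so they cannot decide whether replicate numbers or prefixes pair the libraries. Deviations of same-numbered tumour and normal libraries correlated over genes at -0.219, -0.297 and -0.023 under VEH and -0.102, 0.158 and 0.161 under HDM. Those of libraries with the same prefix correlated at -0.219, 0.058, 0.179, 0.019, 0.138 and 0.112. The value of -0.219 is the same pair in both, normal VEH replicate 1 with tumour VEH replicate 1. With the replicate number as a block, 5 genes were called under VEH, 8 under HDM and 0 in the other comparisons.

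The values that changed sign were all uncalled. For HDM against VEH in tumours, Snai1 was -0.0009 with DESeq2 or its size factors, -0.011 with 10 counts in every library and -0.020 without a filter, Vim was 0.0061 by library size alone, and Twist1 was 0.11 without the 3 libraries that stand apart. Zeb1 in tumours against normal was 0.0091 under VEH by library size alone and -0.042 under HDM with 10 counts in every library. With the prefix block, HDM against VEH in normal lung was 0.73 for Epcam, 0.25 for Zeb1 and 0.12 for Snai2, and the interaction was -1.10 for Twist1 and 0.37 for Snai1. Without the 4 libraries of conflicting prefixes, normal lung gave -0.047 for Zeb2, 0.85 for Twist1, -0.26 for Snai1 and -0.15 for Cdh1, and the interaction 0.41 for Snai1 and -1.42 for Twist1. Without the 3 libraries that stand apart, normal lung gave -0.13 for Cdh1, 0.10 for Cdh2, -0.072 for Zeb2 and 0.98 for Twist1, and the interaction -0.87 for Twist1 and -0.034 for Cdh2. Leaving out a library at a time, normal lung ran from -0.13 to 0.30 for Cdh1, -0.30 to 0.10 for Cdh2, -0.26 to 0.0086 for Epcam, -0.17 to 0.50 for Snai1, -0.73 to 0.24 for Snai2, -2.67 to 0.99 for Twist1, -0.11 to 0.39 for Vim, -0.29 to 0.19 for Zeb1 and -0.12 to 0.15 for Zeb2. In tumours it ran from -0.17 to 0.17 for Snai1 and -0.58 to 0.11 for Twist1. The interaction ran from -0.47 to 0.20 for Snai1, -1.37 to 2.28 for Twist1, -0.48 to 0.019 for Vim and -0.056 to 0.42 for Zeb1, and Zeb1 under VEH from -0.33 to 0.15. The cause was not tested. With 3 libraries a group and Cdh1 and Epcam at 0 counts in 1 of them, the precision for both is low.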
